A study of Mus musculus with 31 samples.

Results

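The small leucine-rich proteoglycans are secreted matrix proteins, and 10 of their genes were followed here by symbol among the 38283 genes of the deposited tables: Dcn, Bgn and Aspn of class I, Lum, Fmod, Prelp, Kera and Omd of class II, and Ogn and Epyc of class III. All 10 symbols had a row. Expression was measured by RNA-seq in pancreatic cells of C57BL/6 mice taken on postnatal day 2 and sorted into YFP+ (mesenchymal) and YFP- (non-mesenchymal) fractions. Values are FPKM, which correct for transcript length and library size, so levels can be set side by side between genes of a library. They are relative to the whole library. Between libraries that differ in their cells they compare shares of the library, not amounts.

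Every group carried the Nkx3.2-Cre driver, controls included, and YFP marked the sorted mesenchyme. In the H19DMD model the controls were H19DMD+/+; Nkx3.2+/Cre and the mutants H19DMDfl/+; Nkx3.2+/Cre, with 3 control and 4 mutant libraries of each fraction. In the Igf2 model the controls were Igf2+/+; Nkx3.2Cre/+ and the mutants Igf2+/fl; Nkx3.2Cre/+, and 4 control and 3 mutant libraries held its YFP- cells. H19DMD is the imprinting control region of the Igf2 and H19 locus. The series is about deletion and overexpression of Igf2 limited to the mesenchyme. The labels do not say whether pancreata were pooled, nor that libraries with the same number came from the same animal, so p-values measure the spread between libraries, part of which may be technical. The other 10 samples of the series, among them all mesenchymal libraries of the Igf2 model, were not analysed here. The models were normalised in separate tables, so model and sequencing pool cannot be told apart and no test crossed the models.

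Small leucine-rich proteoglycans fold as a curved solenoid of leucine-rich repeats that binds collagen fibrils and sets their diameter and spacing. Several carry chondroitin, dermatan or keratan sulfate chains, and several also bind growth factors such as TGF-beta or act on cell surface receptors. In connective tissue they are made mainly by fibroblasts and related mesenchymal cells.

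The sort was checked with marker lists. In H19DMD control cells, the 10 of 12 mesenchymal markers that could be tested (such as Col1a1 and Postn) were all higher in the mesenchymal fraction, against 12.4% of all genes tested. For 4 of the 10 (Barx1, Pdgfra, Pdgfrb and Prrx1) the non-mesenchymal mean was under 1 FPKM, so they passed the filter of 1 FPKM only through their mesenchymal level and their difference was built in. Lower there were 7 of 7 acinar, 8 of 8 endocrine, 4 of 7 ductal, 7 of 8 leukocyte, 2 of 4 erythroid and 4 of 4 neural markers tested, against 10.3% of all genes. Of these, in the same order, 2, 1, 1, 3, 1 and 3 had a mesenchymal mean under 1 FPKM and passed only through the non-mesenchymal level. The summed mesenchymal markers stood at 5156 to 5841 FPKM in mesenchymal and at 164 to 194 FPKM in non-mesenchymal control libraries. Nkx3-2 itself, the gene of the Cre driver, was near 0 in the mesenchymal fraction (0 to 1.99 FPKM) and was listed at 0 in all 7 non-mesenchymal libraries of the H19DMD model. Markers of smooth muscle and pericytes (8 of 8) and of mesothelium (6 of 6) were also higher in control mesenchymal cells, 4 and 3 of them with the same limit, as were 2 of 8 endothelial markers. Igf2 stood at 3648 to 4024 FPKM in control and 6162 to 7923 FPKM in mutant mesenchymal libraries of the H19DMD model, and H19 at 2437 to 2454 and 565 to 835 FPKM. In the Igf2 model the deletion was aimed at the mesenchyme, so the YFP- libraries analysed, with Igf2 at 71.5 to 144 FPKM in controls and 25.0 to 147 FPKM in mutants, do not check those labels. Mutant library 4 of the mesenchymal fraction stood apart, with a Pearson r across all genes (log2(FPKM + 1), genes not being independent) of 0.8504 to 0.8538 with its replicates, against 0.865 to 0.869 among the other 3 and 0.868 to 0.876 among control mesenchymal libraries.

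The promoters of 4 members are shown. Aspn and Ogn lie in the same cluster on chromosome 13 and had the highest correlation of any pair of members across mesenchymal libraries, Bgn was the most abundant member with a promoter entry, and Prelp showed the narrowest gap between the fractions of the 7 members tested. The 250 bases before the transcript start are shown from RefSeq (GRCm38.p6), 5′ to 3′ on the gene's strand, and 8 of the 10 members had such an entry. Capitals mark each match, on either strand, to the motifs searched, which were TATAAA (the TATA box), TGANTCA (the AP-1 site) and CCAAT (the CCAAT box). The RefSeq start lies 31 bases before the GENCODE start given below for Ogn, 1 base before it for Bgn and 13 bases after it for Prelp.
Ogn (chr13:49607765-49608014, plus strand): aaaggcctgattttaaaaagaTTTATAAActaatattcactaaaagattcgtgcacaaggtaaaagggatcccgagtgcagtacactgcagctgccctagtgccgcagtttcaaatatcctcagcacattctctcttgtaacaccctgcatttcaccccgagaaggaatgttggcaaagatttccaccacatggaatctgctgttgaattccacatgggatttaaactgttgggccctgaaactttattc
Aspn (chr13:49544193-49544442, plus strand): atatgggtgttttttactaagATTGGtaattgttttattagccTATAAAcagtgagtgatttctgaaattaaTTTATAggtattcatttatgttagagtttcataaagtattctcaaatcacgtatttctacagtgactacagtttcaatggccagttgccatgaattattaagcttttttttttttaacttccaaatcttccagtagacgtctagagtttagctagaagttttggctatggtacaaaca
Bgn (chrX:73483351-73483600, plus strand): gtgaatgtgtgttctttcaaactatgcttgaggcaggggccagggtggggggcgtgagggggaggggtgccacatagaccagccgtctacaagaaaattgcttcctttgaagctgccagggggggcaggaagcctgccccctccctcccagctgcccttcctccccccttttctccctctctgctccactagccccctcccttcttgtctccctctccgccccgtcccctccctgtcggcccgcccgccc
Prelp (chr1:133921402-133921651, minus strand): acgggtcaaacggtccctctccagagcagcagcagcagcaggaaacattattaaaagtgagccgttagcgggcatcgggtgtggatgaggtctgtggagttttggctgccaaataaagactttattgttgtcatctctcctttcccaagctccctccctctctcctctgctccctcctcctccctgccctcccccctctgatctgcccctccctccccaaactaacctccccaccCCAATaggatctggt

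The Ogn sequence holds a pair of TATAAA matches on opposite strands that overlap each other and begin at -229 and -227 from the RefSeq start. Aspn holds 2 TATAAA matches, which begin at -207 and -178, and 1 CCAAT match, which begins at -229. Prelp holds 1 CCAAT match, which begins at -15 from the RefSeq start and so spans the GENCODE start, and Bgn has none of the motifs in this window. TATAAA occurs in 12.4% of the 32851 promoter entries cut to the same length, CCAAT in 33.8% and TGANTCA in 6.75%. In base composition the sequences spread widely, from 30% G and C in Aspn and 42% in Ogn to 55.6% in Prelp and 64.4% in Bgn. Of all promoter entries 1.47% had a lower G and C content than Aspn, and 81.6% a lower content than Bgn. Matches and composition are descriptions of these windows.

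Decorin, the class I proteoglycan whose core protein binds type I collagen and TGF-beta and carries a chondroitin or dermatan sulfate chain, was the most abundant member in mesenchymal cells. Dcn (ENSMUSG00000019929, GRCm38 chromosome 10, 97479609 to 97518143, plus strand) read 1295, 1342 and 727 FPKM in the 3 control libraries and 1244, 1115, 1262 and 775 FPKM in the 4 mutant libraries of the H19DMD model. Control library 3 and mutant library 4 were the low ones, and the groups overlapped. In non-mesenchymal cells Dcn read 23.5, 11.5 and 5.42 FPKM in controls and 7.16, 19.5, 5.17 and 15.5 FPKM in mutants.

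Biglycan, the closest relative of decorin and also a ligand of Toll-like receptors, came next. Bgn (ENSMUSG00000031375, chromosome X, 73483602 to 73495933, plus strand) read 389, 469 and 315 FPKM in control and 517, 455, 383 and 372 FPKM in mutant mesenchymal libraries. Its non-mesenchymal values were 11.1, 8.11 and 14.5 FPKM in controls and 10.01, 13.9, 9.11 and 16.7 FPKM in mutants. Within each fraction control and mutant values interleaved. Asporin, the class I member that has an aspartate run and usually lacks a glycosaminoglycan chain, was lower than both. Aspn (ENSMUSG00000021388, chromosome 13, 49544443 to 49567565, plus strand) read 48.1, 75.9 and 37.2 FPKM in control and 63.8, 47.6, 78.9 and 36.0 FPKM in mutant mesenchymal libraries, and 0.145 to 1.62 FPKM in the non-mesenchymal libraries of that model.

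Among class II members lumican, a keratan sulfate proteoglycan known from the cornea and needed for regular fibrils, was the highest. Lum (ENSMUSG00000036446, chromosome 10, 97565128 to 97572703, plus strand) read 243, 330 and 155 FPKM in control and 299, 287, 355 and 224 FPKM in mutant mesenchymal libraries. In the non-mesenchymal libraries of the same model it lay between 1.20 and 3.90 FPKM. Fibromodulin, a lumican relative abundant in tendon, was much lower. Fmod (ENSMUSG00000041559, chromosome 1, 134037254 to 134048277, plus strand) read 24.9, 11.1 and 9.86 FPKM in control and 12.3, 10.99, 9.35 and 8.15 FPKM in mutant mesenchymal libraries, so that control library 1 alone lay far above the rest. Its non-mesenchymal values ran from 0 to 0.645 FPKM.

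Prelp, a class II member that binds collagen and perlecan and is placed at basement membranes, showed a flatter profile across the fractions. Prelp (ENSMUSG00000041577, chromosome 1, 133910304 to 133921414, minus strand) read 41.4, 43.0 and 42.3 FPKM in control and 46.4, 42.5, 24.4 and 29.5 FPKM in mutant mesenchymal libraries. The 3 controls nearly coincided, and mutant libraries 3 and 4 were below them. In non-mesenchymal cells it read 13.1, 14.3 and 15.4 FPKM in controls and 11.5, 11.5, 15.8 and 18.2 FPKM in mutants. No non-mesenchymal library reached the lowest mesenchymal one.

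Osteoglycin (also called mimecan), a class III member, came after Lum in mesenchymal cells. Ogn (ENSMUSG00000021390, chromosome 13, 49608046 to 49624501, plus strand) read 97.1, 123 and 56.3 FPKM in control and 116, 82.2, 155 and 58.3 FPKM in mutant mesenchymal libraries. As for Dcn, control library 3 and mutant library 4 were lowest. Its non-mesenchymal values ran from 0.206 to 2.65 FPKM.

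The other 3 members were at or near the floor of the tables. Keratocan, the corneal keratan sulfate proteoglycan, read 1.16, 1.95 and 0 FPKM in control and 1.00, 1.36, 2.03 and 0 FPKM in mutant mesenchymal libraries, and Kera was listed at 0 in all 7 non-mesenchymal libraries of the H19DMD model. Omd, which encodes osteomodulin of bone and teeth, lay between 0 and 1.60 FPKM in all 14 libraries of that model. Epiphycan, of growth cartilage, reached at most 0.577 FPKM in mesenchymal cells, and Epyc was listed at 0 in every non-mesenchymal library of both models. An exact 0 in such a table can be a failed estimate, so these are given as listed values.

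**Figure D1:**
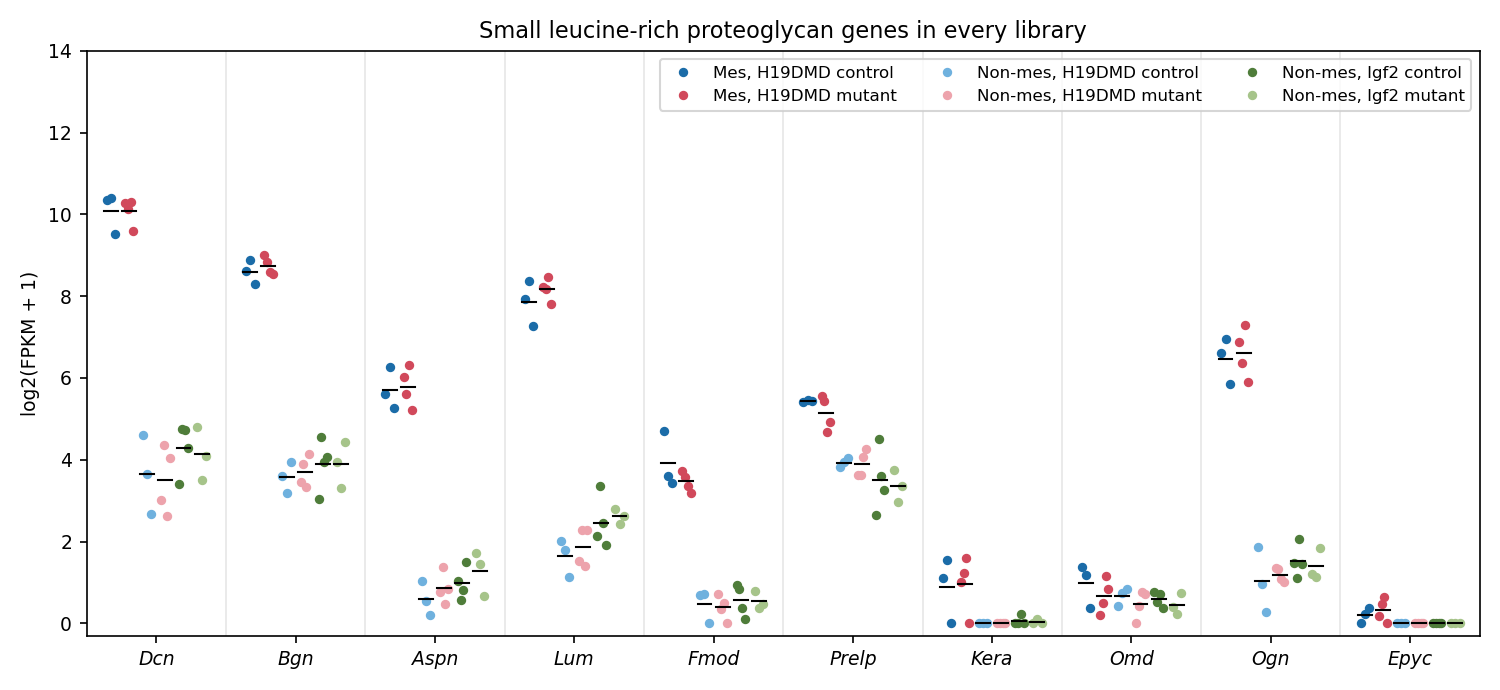
Level of each of the 10 genes on the log2(FPKM + 1) scale in every library (points), by group (colours), with the group mean as a black bar. The 7 mesenchymal libraries lie above all non-mesenchymal libraries of the same model for Dcn, Bgn, Aspn, Lum, Fmod, Prelp and Ogn, and Prelp shows the narrowest gap of these.

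The order of levels in control mesenchymal cells was Dcn at 1122 ± 342, Bgn at 391 ± 77, Lum at 243 ± 88, Ogn at 92.0 ± 33, Aspn at 53.8 ± 20, Prelp at 42.2 ± 0.79 and Fmod at 15.3 ± 8.4 FPKM (mean ± SD, n = 3). Neighbours whose libraries overlapped were Bgn with Lum, Ogn with Aspn and Aspn with Prelp, although Bgn was above Lum and Ogn above Aspn within each of the 3 libraries. Mutant mesenchymal cells gave the same order of these 7 genes, with Dcn at 1099 ± 226, Bgn at 432 ± 67 and Lum at 291 ± 54 FPKM (mean ± SD, n = 4), and there Bgn and Lum did not overlap.

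In non-mesenchymal cells of the H19DMD model the top of that order was shared by Prelp, Dcn and Bgn. Control means were 14.3 ± 1.1 FPKM for Prelp, 13.5 ± 9.2 FPKM for Dcn and 11.2 ± 3.2 FPKM for Bgn (SD, n = 3), and their libraries overlapped. Lum followed at 2.25 ± 0.96 FPKM, apart from Bgn. In the Igf2 model Dcn led at 19.8 ± 7.6 FPKM in controls (n = 4) and 17.8 ± 8.5 FPKM in mutants (n = 3), followed by Bgn at 14.996 ± 6.3 and 14.6 ± 5.9 FPKM and by Prelp at 11.7 ± 7.2 and 9.56 ± 2.9 FPKM, with overlap between these neighbours.

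As shares of the summed FPKM of the 10 genes, Dcn, Bgn and Lum together made up 89.5% ± 0.46 in control (SD, n = 3) and 89.9% ± 1.4 in mutant (SD, n = 4) mesenchymal libraries. Their joint share was 60.2% ± 6.7 and 59.5% ± 10 in the non-mesenchymal libraries of the same model. Prelp accounted for 2.29% ± 0.75 of the family in control mesenchymal and 33.7% ± 9.0 in control non-mesenchymal libraries. In the Igf2 model the Prelp share of non-mesenchymal cells was 19.98% ± 4.4 in controls (n = 4) and 18.8% ± 1.7 in mutants (n = 3).

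**Figure D2:**
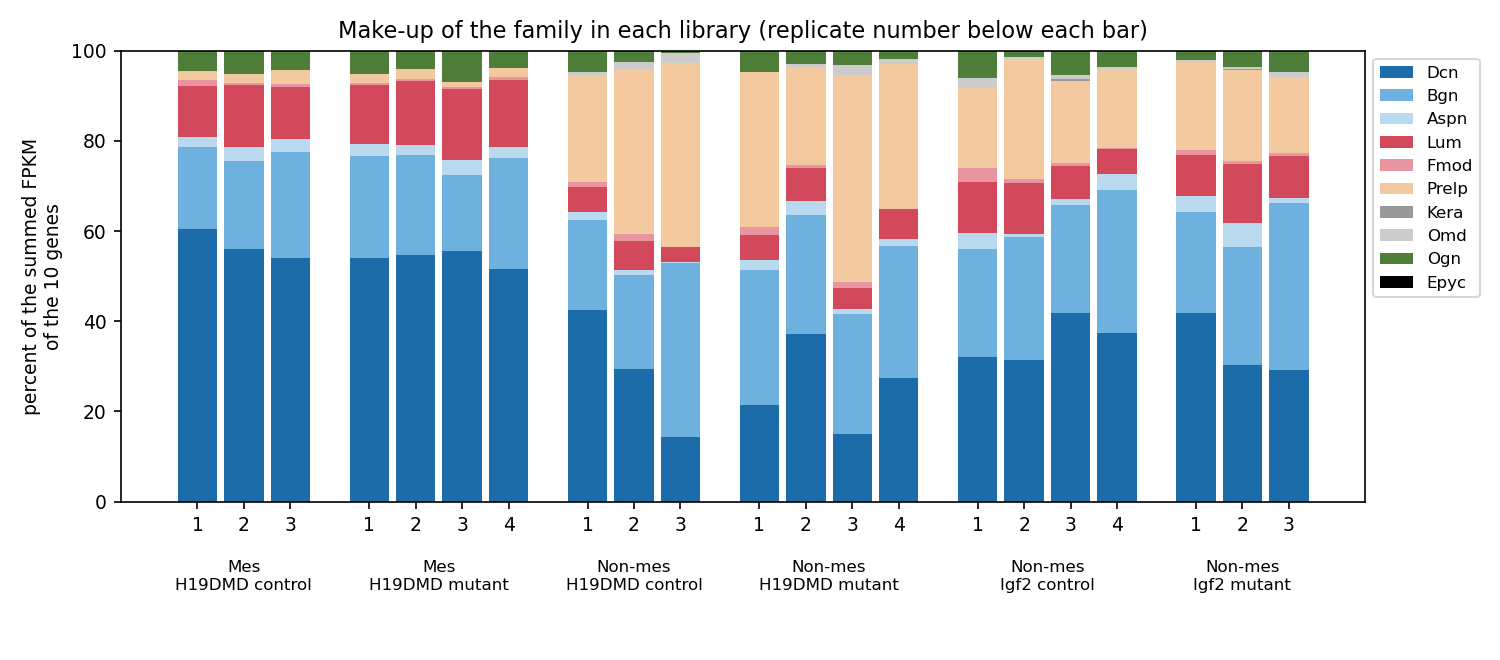
Each bar is a library and divides the summed FPKM of the 10 genes into the percent held by each gene. Dcn, Bgn and Lum fill 88.0 to 91.2% of the bars of mesenchymal cells, and the Prelp segment widens in non-mesenchymal cells.

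The comparison of sorted fractions bears on which side of the sort the family is expressed. In H19DMD controls all 7 members that averaged 1 FPKM or more over the compared libraries, and so were tested, rose in mesenchymal over non-mesenchymal cells, against 12.4% of the 16732 genes tested that were called higher (limma, Benjamini-Hochberg adjusted p under 0.05). The log2 differences were 6.43 ± 0.53 (SE) for Dcn, 6.21 ± 0.37 for Lum, 5.44 ± 0.49 for Ogn, 5.12 ± 0.35 for Aspn, 5.02 ± 0.26 for Bgn, 3.44 ± 0.42 for Fmod and 1.51 ± 0.15 for Prelp, on the log2(FPKM + 1) scale. With a pseudocount of 0.1 the difference of Fmod was 5.22, of Aspn 6.57 and of Ogn 6.52, and both Lum at 6.72 and Aspn stood above Dcn at 6.56. Their adjusted p-values at a pseudocount of 1 by limma ran from 0.000155 for Bgn to 0.00253 for Fmod. The median over the 7 members was 5.12, and over all genes tested 0.08. Fmod and Aspn passed the filter through their mesenchymal level only, so a difference was built into their passing, and Kera, Omd and Epyc did not pass it.

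The mutants repeated the comparison with other libraries. Again all 7 members tested rose in mesenchymal cells, against 13.5% of 16767 genes called higher, with the same limit for Fmod and Aspn, whose non-mesenchymal means were under 1 FPKM. The log2 differences were 6.56 ± 0.39 (SE) for Dcn, 6.30 ± 0.26 for Lum, 5.42 ± 0.30 for Ogn, 5.03 ± 0.21 for Bgn, 4.91 ± 0.29 for Aspn, 3.08 ± 0.23 for Fmod and 1.25 ± 0.25 for Prelp, whose adjusted p was the highest of the 7 at 0.00709 (limma). With a pseudocount of 0.1 Fmod was at 4.88, and Lum at 6.73 stood above Dcn at 6.70. Without mutant library 4 of the mesenchymal fraction all 7 remained called, with Dcn at 6.72 and Prelp at 1.32. In every one of these 14 tests the fractions did not overlap, as was so, with mesenchymal libraries above, for 22.4% of all genes tested in controls and 14.4% in mutants. Exact two-sided permutation tests gave p = 0.0286 for each of the 7 genes in mutants (4 against 4 libraries) and p = 0.1 in controls (3 against 3), the smallest values those designs allow.

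Prelp stood apart from the other 6 members tested in size. Its 95% interval of the log2 difference was 1.14 to 1.87 in controls and 0.66 to 1.83 in mutants, below the lowest bound among the other 6, which was that of Fmod at 2.42 and 2.54. Expressed as a ratio of mean FPKM, the non-mesenchymal level of Prelp was 33.8% of the mesenchymal level in controls and 39.9% in mutants. The same ratio was 2.87% and 2.88% for Bgn, 2.75% and 3.27% for Fmod, 1.37% and 1.26% for Ogn, 1.20% and 1.08% for Dcn, 1.03% and 1.56% for Aspn and 0.928% and 0.966% for Lum. Of the mesenchymal markers 9 averaged 10 FPKM or more in the mesenchyme, and their ratios ran from 0.458% to 16.4% in controls with a median of 0.935%. The highest was that of Vim, which encodes the intermediate filament vimentin, and the next that of Pdgfrb at 1.99%. In mutants they ran from 0.945% to 20.2%, with a median of 1.5%. The other 6 members tested lay within the range of these markers in both genotypes, and Prelp lay above all 9. Omd, which was near the floor and not tested, had a ratio of 57.1% in controls and 65.8% in mutants. Fewer mesenchymal cells and less RNA per cell cannot be told apart in such bulk fractions.

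Prelp overlaps Gm15851, an antisense gene, over 350 exonic bases. Whether the counting used strand is not given in the sources used here. Gm15851 was listed at 0 to 1.05 FPKM in the H19DMD model, and at 0 in all 3 control mesenchymal libraries. Aspn, Omd and Ogn lie inside the span of Cenpp on the opposite strand, with 7 shared exonic bases for Aspn and 0 for the other two. Cenpp averaged 3.76 FPKM in mesenchymal and 3.41 FPKM in non-mesenchymal control cells. Epyc shares 1041 exonic bases with Gm10754, which was listed at 0 in all libraries.

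**Figure D3:**
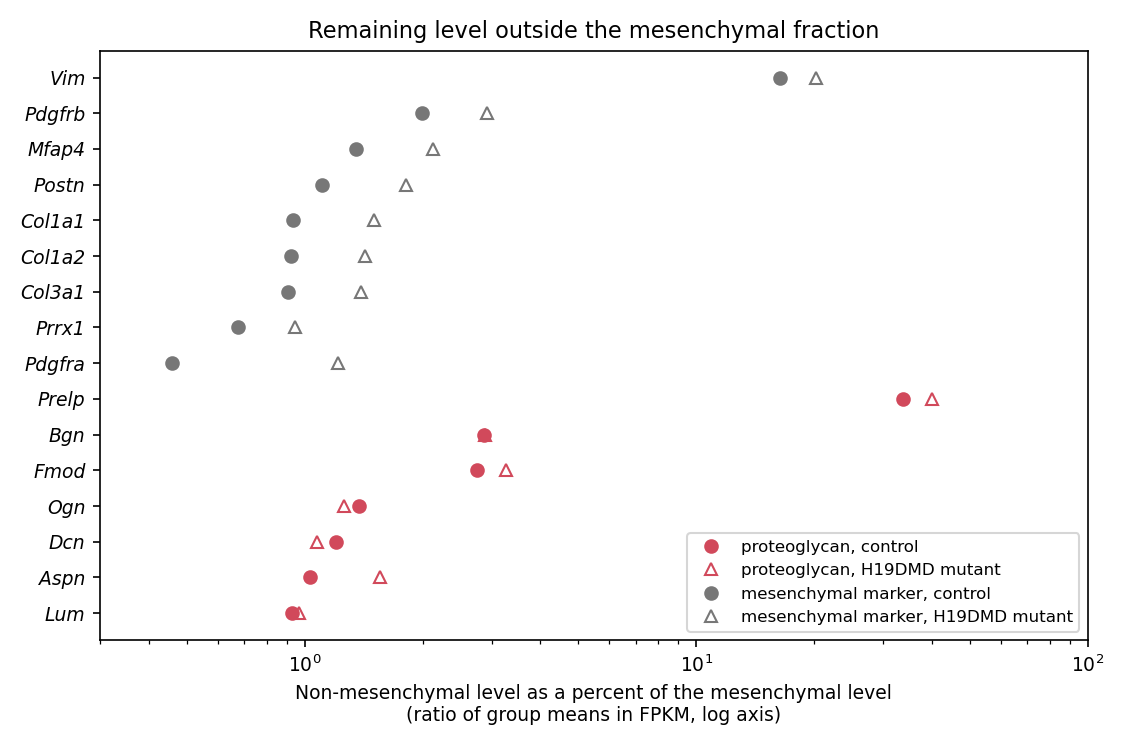
Mean non-mesenchymal level as a percent of the mean mesenchymal level (log axis) for the 7 members and 9 mesenchymal markers that averaged 10 FPKM or more in the mesenchyme, in controls (filled circles) and H19DMD mutants (open triangles). Prelp lies at 33.8% and 39.9%, to the right of Vim, and the other 6 members lie between 0.928% and 3.27%.

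The next comparison asked whether deletion of H19DMD in the mesenchyme went with a change of the family in the mesenchyme itself. None of the 8 members tested passed the threshold (limma, 0 at an adjusted p under 0.05 and 0 at an unadjusted p under 0.05), against 0.0694% of 15856 genes called and 755 genes at an unadjusted p under 0.05. For no member did the control and mutant libraries separate, which they did for 5.39% of genes. The mutant minus control log2 difference of Dcn was -0.0028, with a 95% interval from -0.70 to 0.70, and it was 0.08 when libraries were rescaled by median ratios. The intervals were -0.34 to 0.64 for Bgn, -0.38 to 1.00 for Lum, -0.81 to 1.08 for Ogn, -0.73 to 0.88 for Aspn, -0.86 to 0.30 for Prelp, -1.23 to 0.35 for Fmod and -1.26 to 1.40 for Kera. These intervals do not establish that the levels are equal. Without mutant library 4, which stood apart, the difference was 0.16 for Dcn, 0.43 for Lum, 0.38 for Ogn, 0.27 for Aspn, 0.21 for Bgn, -0.21 for Prelp, -0.35 for Fmod and 0.39 for Kera, and none of the 8 passed the threshold. Exact permutation p-values of the 8 genes ran from 0.343 for Fmod to 0.971 for Kera (two-sided, by doubling the smaller one-sided value, 4 against 3 libraries). The smallest value this test allows is 0.0571, so it could not have passed 0.05.

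The non-mesenchymal cells of this model were compared to see whether the family changed outside the mesenchyme. Of 5 members tested (Dcn, Lum, Bgn, Ogn and Prelp), 0 passed the threshold by limma and 0 had an unadjusted p under 0.05, against 0.0677% of 16239 genes called and 868 genes at an unadjusted p under 0.05. None separated between genotypes, against 5.68% of genes. Prelp had the narrowest interval, with a log2 difference of -0.03 (95% interval -0.51 to 0.46), and Dcn the widest, at -0.13 (-1.49 to 1.23). Lum was at 0.22 (-0.63 to 1.07), Ogn at 0.16 (-0.85 to 1.17) and Bgn at 0.13 (-0.52 to 0.78).

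Whether the H19DMD difference itself varied between fractions was tested as an interaction. Of 7 members tested, 0 passed by limma and 0 had an unadjusted p under 0.05, against 0.0117% of 17105 genes called and 1087 at an unadjusted p under 0.05. The estimates, as the mesenchymal minus the non-mesenchymal difference, ran from -0.36 ± 0.45 (SE) for Fmod to 0.13 ± 0.69 for Dcn. The median over all genes was -0.11 here and moved to -0.0048 with median-ratio scaling, under which the Ogn estimate moved from -0.02 to 0.11.

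In the Igf2 model the question was whether loss of mesenchymal Igf2 went with a change in non-mesenchymal cells. Dcn read 9.54, 25.8, 25.3 and 18.6 FPKM in the 4 controls and 27.0, 10.3 and 16.2 FPKM in the 3 mutants. Bgn read 7.19, 22.6, 14.5 and 15.7 FPKM in controls and 14.4, 8.86 and 20.6 FPKM in mutants. Prelp read 5.27, 21.9, 11.1 and 8.65 FPKM in controls and 12.5, 6.82 and 9.34 FPKM in mutants. The ranges overlapped for all 3 genes, and control library 1 and mutant library 2 were the lowest of their groups for each. Lum lay at 2.77 to 9.23 FPKM in controls and at 4.43 to 5.91 FPKM in mutants. The other members tested did not share the low control library. Lum was lowest in control library 4, and Ogn (1.15 FPKM) and Aspn (0.489 FPKM) in control library 2. Among mutants Lum and Ogn were also lowest in library 2, but Aspn was lowest in library 3 (0.585 FPKM).

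Of the 6 members tested in this model, 0 passed by limma and 0 had an unadjusted p under 0.05, against 0.0631% of 17441 genes called and 921 at an unadjusted p under 0.05. None separated between genotypes, against 6.02% of genes. The summed acinar markers lay at 29558 to 42593 FPKM in controls and 84676 to 99166 FPKM in mutants, without overlap. None of the 8 markers was at 0 throughout a group. By limma 0 of the 8 passed the threshold, with 7 of the 8 differences above 0 and a median log2 difference of 1.04. FPKM are relative to the whole library, and the part of these sums in the values of the members was not tested. Log2 differences of mutant minus control were -0.15 (95% interval -1.17 to 0.86) for Dcn, 0.15 (-0.72 to 1.02) for Lum, -0.13 (-0.98 to 0.71) for Ogn, -0.14 (-1.19 to 0.90) for Prelp and 0.30 (-0.69 to 1.29) for Aspn. Bgn was at -0.0084 (-0.99 to 0.97), and at 0.03 with median-ratio scaling. The summed collagen partners were also lowest in control library 1 (68.1 FPKM, the other controls 139 to 153 FPKM) and mutant library 2 (58.2 FPKM, the others 134 and 160 FPKM). Markers of some other cell types were lowest there too. Endothelial markers (8 of 8 averaging 1 FPKM or more in both groups) summed to 15.05 FPKM in control library 1 (the others 54.2 to 116 FPKM) and 30.6 FPKM in mutant library 2 (the others 62.4 and 115 FPKM). Mesothelial markers summed to 2.47 and 1.16 FPKM there (the others 5.31 to 8.72 and 5.24 to 5.68 FPKM), and mesenchymal markers to 214 and 215 FPKM (the others 347 to 403 and 306 to 440 FPKM). Erythroid markers were highest in the same libraries, at 1016 and 358 FPKM (the others 139 to 347 and 141 to 224 FPKM). Smooth muscle and neural markers were lowest in control library 2 (34.2 and 37.3 FPKM), not library 1 (36.4 and 86.2 FPKM). Ductal and endocrine markers were lowest in control library 3 and acinar markers in control library 4. In mutants the smooth muscle, neural, ductal and endocrine sums were lowest in library 2. Leukocyte markers were lowest in control library 1 (704 FPKM) but highest in mutant library 2 (1477 FPKM). The part of these cell types in the spread of Dcn, Bgn and Prelp was not tested.

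**Figure D4:**
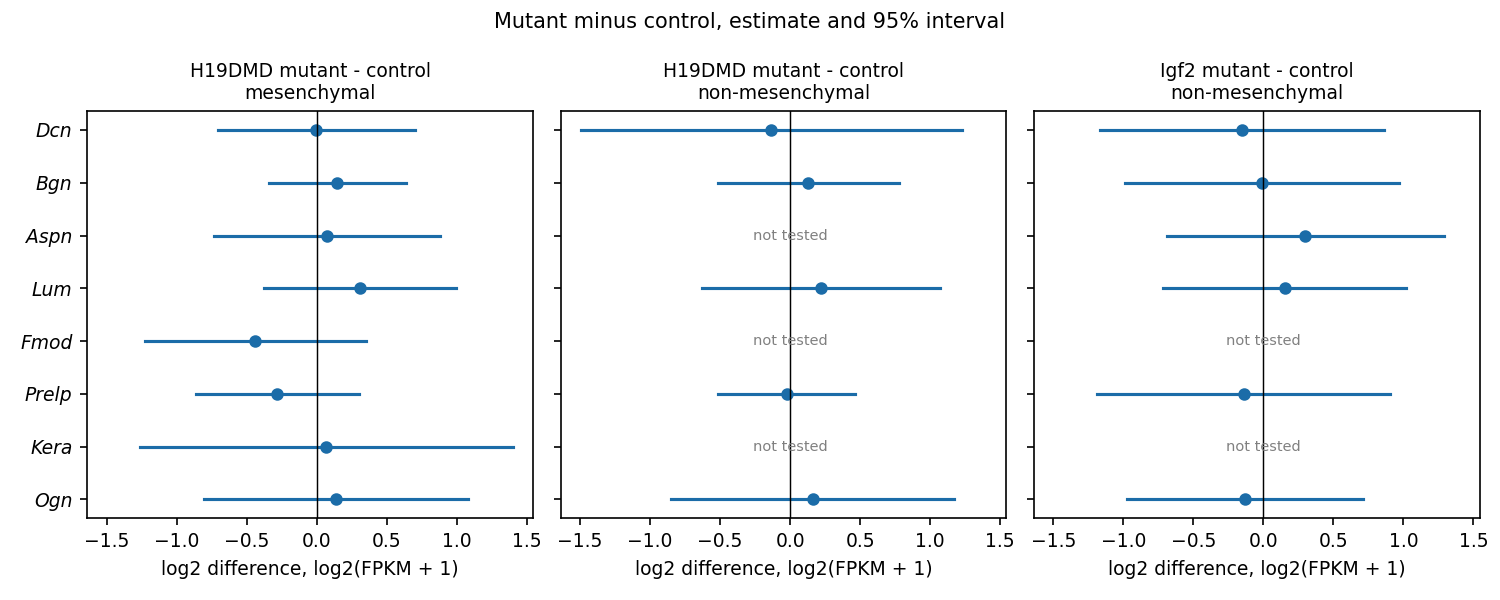
Mutant minus control difference on the log2(FPKM + 1) scale (points) with its 95% interval (lines) from limma for each member in the 3 mutant comparisons; genes below a mean of 1 FPKM were not tested. Every interval includes 0, and the widest are those of Dcn in non-mesenchymal H19DMD cells and of Kera.

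The spread among mesenchymal libraries of the same genotype was shared by several members. Of the 7 more abundant members 6 (Dcn, Lum, Ogn, Aspn, Bgn and Fmod) were lowest in control library 3 among controls and in mutant library 4 among mutants. Prelp was lowest in neither, and Kera was listed at 0 in exactly these libraries. The share of all genes lowest in both libraries was not counted, so the 6 of 7 has no background beside it. Mutant library 4 is the library that stood apart across all genes, and control library 3, at r = 0.868 and 0.876 with its replicates, did not. Control library 3 held 64.9% of the group mean for Dcn, 63.7% for Lum, 61.2% for Ogn and 69.3% for Aspn. Mutant library 4 held 70.5%, 76.8%, 56.6% and 63.6% of its group mean for the same genes. Fmod stood at 64.5% and 79.9% in those libraries, Bgn at 80.7% and 86.2%, and Prelp at 100% in control library 3 and 82.5% in mutant library 4.

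Collagens and mesenchymal markers were set beside the members in the same libraries. In control library 3 the 17 collagen and mesenchymal marker genes that averaged 10 FPKM or more had a median of 99.4% of the group mean (range 74.5% to 112%), against 64.9% for the 7 members (61.2% to 100%). In mutant library 4 the medians were 104% (85.4% to 141%) and 76.8% (56.6% to 86.2%), and the ranges overlapped in both libraries. Both libraries were picked because members were low there, so a low median of the members was built in. In mutant library 3 the medians were 78.5% for collagens and markers and 115% for the members, but the members divided there. Ogn was at 151%, Aspn at 139%, Lum at 122% and Dcn at 115%, while Fmod at 91.7%, Bgn at 88.7% and Prelp at 68.5% were below their group means. Col1a1, a chain of the main fibrillar collagen, was at 110% in control library 3, 99.1% in mutant library 4 and 71.8% in mutant library 3. Over the 7 libraries, after removing the group means, the log2 values of Aspn and Ogn had a Pearson r of 0.97, those of Dcn and Lum 0.93, and those of Dcn and Prelp 0.14. These points share their libraries and amplification, and the values are descriptions.

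Other cell types also varied among these libraries. The smooth muscle and pericyte markers (8 of 8 averaging 1 FPKM or more in both genotypes, none at 0) summed to 499 to 849 FPKM in controls and 164 to 769 FPKM in mutants, with the lowest value in mutant library 4 and the highest in control library 3. They were thus at opposite ends in the libraries where 6 members were lowest. The endocrine markers, with 7 of 8 averaging 1 FPKM or more in controls and 6 of 8 in mutants and Neurod1 at 0 in all controls, were lowest in the same libraries as these members. They summed to 54.1 FPKM in control library 3 (the others 124 and 216 FPKM) and to 31.2 FPKM in mutant library 4 (the others 50.7 to 123 FPKM). The keratan sulfate enzymes were also lowest there, at 17.8 FPKM (the others 18.7 and 24.2 FPKM) and 12.6 FPKM (the others 14.9 to 23.0 FPKM). Mesothelial markers (6 of 6) summed to 138 to 304 FPKM in controls and 97.8 to 146 FPKM in mutants, and the leukocyte sum was highest in mutant library 4 at 70.7 FPKM, against 18.2 to 43.3 FPKM in the other 6 libraries. Their part in the pattern of the members was not tested.

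**Figure D5:**
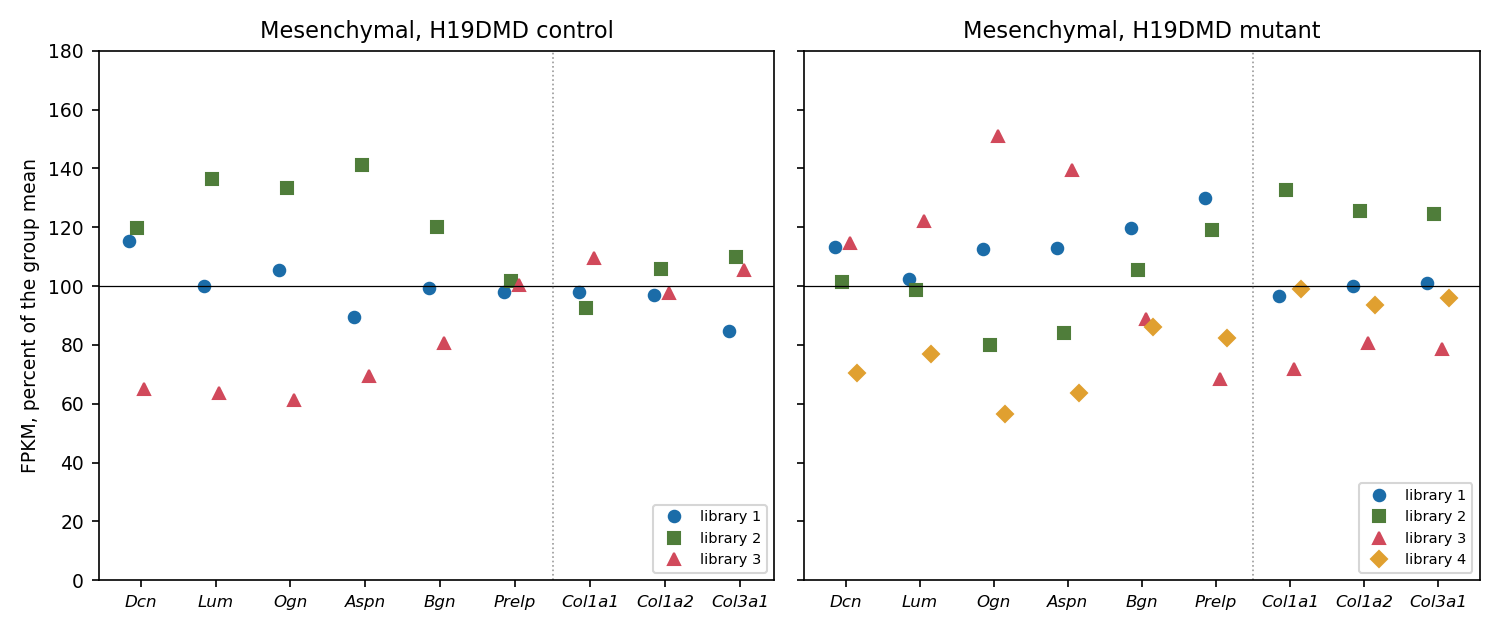
FPKM of 6 members and 3 collagen genes in each mesenchymal library as a percent of the mean of its group, with a symbol for each library; control libraries are on the left and mutant libraries on the right. Dcn, Lum, Ogn and Aspn lie between 56.6% and 76.8% in control library 3 and mutant library 4, where Col1a1, Col1a2 and Col3a1 lie between 93.7% and 110%.

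Over the 7 non-mesenchymal libraries the Pearson r after removing group means was above 0 for 14 and below 0 for 7 of the 21 pairs of members, with a median of 0.27, against 18 above and 3 below with a median of 0.57 over the 7 mesenchymal libraries. The lowest in non-mesenchymal cells were -0.86 between Bgn and Fmod, -0.61 between Fmod and Prelp, -0.54 between Aspn and Prelp and -0.52 between Ogn and Prelp, and among the highest were 0.97 between Dcn and Lum, 0.94 between Dcn and Aspn, 0.84 between Lum and Aspn and 0.75 between Aspn and Ogn. Over the 7 mesenchymal libraries the same pairs had 0.93, 0.84, 0.92 and 0.97. In the non-mesenchymal libraries Fmod ran from 0 to 0.645 FPKM and Aspn from 0.145 to 1.62 FPKM. Fmod was listed at 0 in control library 3 and mutant library 4, which can be failed estimates. The r values of these genes there rest on levels near the floor. The counts of pairs and the median for non-mesenchymal cells include them. Among the genes most like Dcn by the rule given below was Col3a1, which encodes type III collagen. Col3a1 read 21.7, 10.3 and 6.12 FPKM in controls and 9.27, 26.4, 5.32 and 21.1 FPKM in mutants, the same order of libraries as for Dcn within each group. The r between Dcn and Col3a1 was 0.98 over these 7 libraries and -0.19 over the 7 mesenchymal libraries, and the difference was not tested. Prelp had an r to Dcn of -0.23 over the non-mesenchymal libraries, where it was highest in mutant library 4 (18.2 FPKM) and mutant library 3 (15.8 FPKM).

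By the same measure over all 14 libraries, the 3 genes most like each member were listed among 6021 protein-coding genes. They were PPP4R2 (r = 0.85), Col3a1 (0.84) and Phc1 (0.84) for Dcn, and Epha3 (0.86), Igsf10 (0.85) and PPP4R2 (0.85) for Lum. For Bgn they were Mfap5 (0.89), which encodes a microfibril protein, Ndufb7 (0.87) and H2afy2 (0.82). Ogn had Nipbl (0.93), Fam92a (0.89) and Wnt5a (0.84), and Aspn had Ldb2 (0.86), Pi15 (0.85) and Glmn (0.85). Fmod had Fam175b (0.85), Enpp2 (0.83) and Commd3 (0.83). Prelp had Ctsh (0.91), a lysosomal cathepsin gene, Atp1b3 (0.88) and Actn4 (0.86). No gene beyond PPP4R2 was named for 2 members. With 14 libraries and so many genes such values only describe likeness; the genes of a library share its depth and amplification.

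Genes that work with the family were followed from lists of partners. Over all genes tested, 12.4% were called higher and 10.3% lower in mesenchymal cells in controls, and 13.5% higher and 15.1% lower in mutants, and the counts below stand beside these shares. Genes with a non-mesenchymal mean under 1 FPKM were tested only through their mesenchymal level, so that their difference was built into the filter. Among genes called higher in controls these were 4 of 12 collagens, 2 of 6 proteases (Adamts4 and Tll1), 2 of 7 chondroitin and dermatan sulfate enzymes, Chst4, and 3 of 4 other leucine-rich repeat genes (Optc, Podn and Tsku). In mutants they were 2 of 12 collagens, 2 of 6 proteases, 3 of 8 chondroitin and dermatan sulfate enzymes and 2 of 3 other leucine-rich repeat genes. No ligand or receptor called higher was among them in either genotype. Of 14 collagen partners 12 were tested, and 12 were higher in mesenchymal cells in both genotypes, with a median log2 difference of 5.84 in controls and 5.24 in mutants. Col3a1 was at 1401 ± 189 FPKM in mesenchymal and 12.7 ± 8.0 FPKM in non-mesenchymal controls (SD, n = 3), and Col1a1 at 883 ± 77 and 8.26 ± 4.4 FPKM. The proteases known to cut family members or process their partners were 6 of 6 tested (of 9 listed) higher in both genotypes (median 2.84 in controls and 2.89 in mutants), among them Mmp2, a gelatinase, at 94.3 ± 11 against 1.70 ± 0.33 FPKM in controls, and the aggrecanases Adamts4 and Adamts5. These medians compare with 0.08 in controls and -0.03 in mutants over all genes tested.

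The sugar chain enzymes were counted in the same way. Of 19 chondroitin and dermatan sulfate enzymes tested, 7 were higher and 0 lower in control mesenchymal cells, with a list median of 0.95, and 8 were higher and 1 lower in mutants, with a median of 1.09. Dsel, a dermatan sulfate epimerase gene, was at 10.9 ± 1.9 FPKM in mesenchymal and 1.47 ± 0.39 FPKM in non-mesenchymal controls, and Chsy1, a chondroitin synthase gene, at 31.0 ± 3.5 and 7.05 ± 0.52 FPKM (SD, n = 3). Chst14, which sulfates dermatan, was higher by 2.05 ± 0.42 on the log2 scale in controls (adjusted p = 0.0183, limma). The 1 of 19 lower in mutant mesenchymal cells, a smaller share than the 15.1% over all genes, was Fam20b, the xylose kinase of the linkage region, at 7.24 ± 2.0 against 19.8 ± 2.6 FPKM (SD, n = 4). Of the keratan sulfate enzymes 1 of 3 tested was higher in controls, Chst4, at 3.25 ± 1.1 FPKM and listed at 0 in non-mesenchymal controls. In mutants 0 of 2 passed in either direction.

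Ligands and receptors bound by the family were 6 of 12 higher and 0 lower in control mesenchymal cells (median 0.96), and 6 higher and 2 lower in mutants (median 0.95). Lrp1, an endocytic receptor of decorin, was at 123 ± 37 against 6.28 ± 1.8 FPKM in controls, Egfr at 26.4 ± 0.90 against 1.72 ± 0.62 FPKM and Tgfbr2 at 40.2 ± 4.5 against 10.8 ± 1.2 FPKM (SD, n = 3). The 2 of 12 lower in mutants, a share near that over all genes, were Met, a receptor bound by decorin, at 5.89 ± 1.0 against 22.0 ± 2.1 FPKM, and Tlr2, a receptor of biglycan, at 1.33 ± 0.55 against 4.71 ± 1.1 FPKM (SD, n = 4). Among other leucine-rich repeat matrix genes, 4 of 6 tested were higher and 1 lower in controls, and 3 of 7 higher and 2 lower in mutants. Podn (podocan) had the largest difference of the higher ones in controls, at 29.1 ± 10 against 0.609 ± 0.41 FPKM, followed by Tsku and Ecm2. In mutants Podn was again first, followed by Ecm2 (log2 difference 2.96) and Tsku (2.79). The lower ones were Podnl1 in controls and Chad and Chadl in mutants, all with mesenchymal means under 1 FPKM and so tested only through their non-mesenchymal level. Podnl1, Chad, Chadl, Fam20b and Tlr2 were named after their values were seen. In the 3 mutant comparisons and the interaction, 0 genes of any of these 6 lists passed the threshold by limma.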

How the data were processed

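RNA from sorted cells was amplified (Ovation RNA-seq V2) and sequenced as single reads of 50 bases, per the labels' protocols. The authors deposited FPKM values per gene in a table for each model, per the file headers. TopHat2 2.0.8, Cufflinks 2.2.1 and GRCm38 are named in the submitters' processing notes; strand use is not given in the sources used here. FPKM keep no read counts, so depth is unknown and no counting intervals are given. Genes above 0 numbered 17476 to 20918 per library, and no replicate pair held identical values beyond 0.00518% of genes.

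Samples were grouped by their labels. log2(FPKM + 1) was tested with limma 3.58.1 in R 4.3.3 (lmFit, eBayes with a variance trend, two-sided) over genes averaging 1 FPKM or more in the libraries compared, with Benjamini-Hochberg adjustment over all of them at 0.05. A fit held no groups beyond those compared. Differences on this scale understate the change of low genes. The fitting code was tested on simulated data. Exact permutation tests over libraries used SciPy 1.17.1, whose two-sided p doubles the smaller one-sided p. Alternatives were median-ratio scaling, a pseudocount of 0.1, no filter, protein-coding genes only, no variance trend, a replicate block, all groups of a table in 1 fit, and leaving out each library. Coordinates are from GENCODE release 21 (GRCm38), which held 36341 of the 38283 gene identifiers.

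All 10 members are named. For each member averaging 1 FPKM or more in the 14 H19DMD libraries, the 3 protein-coding genes with the highest Pearson r were named, among those averaging 10 FPKM or more; of each partner list, up to 3 genes with the largest change past the threshold. The members, the 6 partner lists and the 10 cell type lists were chosen with earlier results of these data known.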

Additional observations from a re-analysis of the deposited data

Results flagged for a closer look

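Kera in non-mesenchymal cells of the Igf2 model's controls was flagged because 1 library lay far from the others: it read 0.175 FPKM, and the other 3 were listed at 0. With the other 3 tied at 0, any value above 0 would have been flagged, so the flag says nothing more than that. It was the only 1 among 27 combinations of a member and a group of 4 libraries, and groups of 3 libraries were not checked. At this level, below the filter of 1 FPKM, the value supports no comparison.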

How the results depend on the processing

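The counts of members past the threshold, 7 and 7 in the comparisons of fractions and 0 in the others, were the same under every alternative run. Each of them kept the 7 tested members higher in mesenchymal cells, with log2 differences of Prelp from 1.38 to 1.56 in controls and 1.11 to 1.41 in mutants. The sizes for low genes depended on the pseudocount. At 0.1 Fmod moved from 3.44 to 5.22 in controls and from 3.08 to 4.88 in mutants, Aspn from 5.12 to 6.57 and from 4.91 to 5.93, and Ogn from 5.44 to 6.52 and from 5.42 to 6.13, with Lum above Dcn in both genotypes, and Aspn above Dcn and Fmod above Bgn in controls. Many estimates that did not pass the threshold changed sign when single libraries were left out. In the mesenchymal H19DMD comparison Lum (0.021 to 0.57), Bgn (0.0027 to 0.29), Fmod (-0.68 to -0.047) and Prelp (-0.42 to -0.12) did not, nor did Aspn in the Igf2 comparison (0.077 to 0.61) and Prelp in the interaction (-0.40 to -0.096). In the mesenchymal H19DMD comparison those that did ranged over -0.29 to 0.16 for Dcn, -0.18 to 0.38 for Ogn, -0.15 to 0.35 for Aspn and -0.38 to 0.39 for Kera. In the non-mesenchymal H19DMD comparison those that did ranged over -0.62 to 0.35 for Dcn, -0.041 to 0.40 for Lum, -0.064 to 0.32 for Bgn, -0.22 to 0.58 for Ogn and -0.15 to 0.063 for Prelp. In the Igf2 comparison those that did ranged over -0.49 to 0.17 for Dcn, -0.030 to 0.45 for Lum, -0.30 to 0.29 for Bgn, -0.35 to 0.047 for Ogn and -0.43 to 0.19 for Prelp. In the interaction those that did ranged over -0.35 to 0.61 for Dcn, -0.20 to 0.35 for Lum, -0.17 to 0.21 for Bgn, -0.60 to 0.030 for Fmod, -0.44 to 0.36 for Ogn and -0.43 to 0.071 for Aspn. Median-ratio scaling moved Dcn to 0.078 in the mesenchymal H19DMD comparison, Bgn to 0.033 in the Igf2 comparison and Ogn to 0.11 in the interaction, and the Prelp level of control mesenchymal cells from 42.2 to 39.2 FPKM.

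The labels do not pair the libraries, and deviations of same-numbered libraries correlated at -0.03 to 0.06. With the replicate number as a block no call among the members changed, Dcn was 0.16 in the mesenchymal and Bgn -0.013 in the non-mesenchymal H19DMD comparison, and Lum was -0.030 and Bgn 0.044 in the Igf2 comparison. The counts of all genes called were small and unstable. They went from 11 to 7 with the block, 0 with protein-coding genes, 5 with all groups in the fit and 13 to 27 without 1 library in the mesenchymal H19DMD comparison, from 11 to 5, 1, 1 and 14 to 34 in the non-mesenchymal one, and from 11 to 2 with the block, 0 with protein-coding genes and 14 to 37 without 1 library in the Igf2 comparison. The interaction went from 2 to 6 with the lower pseudocount or no filter, 0 with protein-coding genes and 2 to 9 without 1 library. The unknown depth limits all statements on Kera, Omd and Epyc.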
